A study of Mus musculus with 23 samples.

Results

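The transcripts described here are those of 10 mouse genes of bone morphogenetic protein (BMP) signalling: the ligands Bmp4, Bmp6 and Bmp7, the signal transducers Smad1, Smad5 and Smad4, and the target genes Id1, Id2, Id3 and Id4. Members were chosen by gene symbol in the platform annotation, and all 10, of 8251 genes that the annotation names, were on the array, in 13 of its 12488 probe sets. There were 14 mice aged 15 months and 9 mice aged 2 months, all male C57BL/6JNIA, and the hippocampus of each was taken whole and run on its own array. Replicate numbers only name the mice. No genetic change is stated for either age. Mice of both were kept in groups with free food and water, and underwent Morris water maze training, first with a visible and then with a hidden platform, before the tissue was frozen. No untrained mice were analysed here, so the ages are compared only in trained animals. Values are MAS5 signals on a linear scale, and age differences are log2 changes of signal + 16, 15-month minus 2-month.

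BMPs are secreted ligands of the transforming growth factor beta superfamily. They bind paired serine/threonine kinase receptors, which phosphorylate Smad1 and Smad5. These join the common partner Smad4, enter the nucleus and switch on genes of which the Id genes are classical examples. Id proteins hold a helix-loop-helix region but no DNA-binding region, and so keep basic helix-loop-helix (bHLH) transcription factors off DNA. In the adult hippocampus BMP signalling is known for restraining the division of neural stem cells in the dentate gyrus and for favouring astrocyte over neuron formation, and noggin, a secreted antagonist, opposes it there.

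The 25th percentile of an array's signals was 53.6 in 15-month replicate 13 and 30.3 to 41.9 on the other arrays, and the 99th percentile was lowest on 15-month replicates 3 and 12 and 2-month replicates 7 and 8. Of 15 hippocampal neuron markers 11 were bright enough to be tested, and their summed signal was 28719 to 38119 at 15 months and 30673 to 35303 at 2 months. Precision is limited by how many arrays there were.

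Smad1 transcript was higher at 15 months, and no other tested member passed. On its brighter probe set the rise was 1.36-fold (95% interval 1.18 to 1.57). Bmp6 had a larger fold, 1.53 (95% interval 1.12 to 2.09), which did not pass, and Id3 had a fold of 0.81 (95% interval 0.67 to 0.97). Of the 13 probe sets, 9 were above the brightness filter, standing for 8 genes, and 1 of these 9 was called by limma with Benjamini-Hochberg adjustment over all tested probe sets at a false discovery rate of 0.05, against 0.376% of all 7453 tested probe sets (0.335% higher and 0.0403% lower). At an unadjusted p under 0.05 there were 3 higher and 1 lower, against 5.89% and 6.51% of all tested probe sets. The median log2 change was 0.15 over the 9 probe sets and -0.02 over all tested ones, and 6 of the 9 were above 0. These counts hold Smad1 with 2 probe sets, both among the 3 higher. With each of the 8 genes taken by its brightest tested probe set, 2 were higher and 1 lower at that threshold. By gene, 5 of the 8 were above 0 and the median was 0.09. In whole tissue, more cells of a type and more RNA per cell cannot be told apart.

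**Figure D1:**
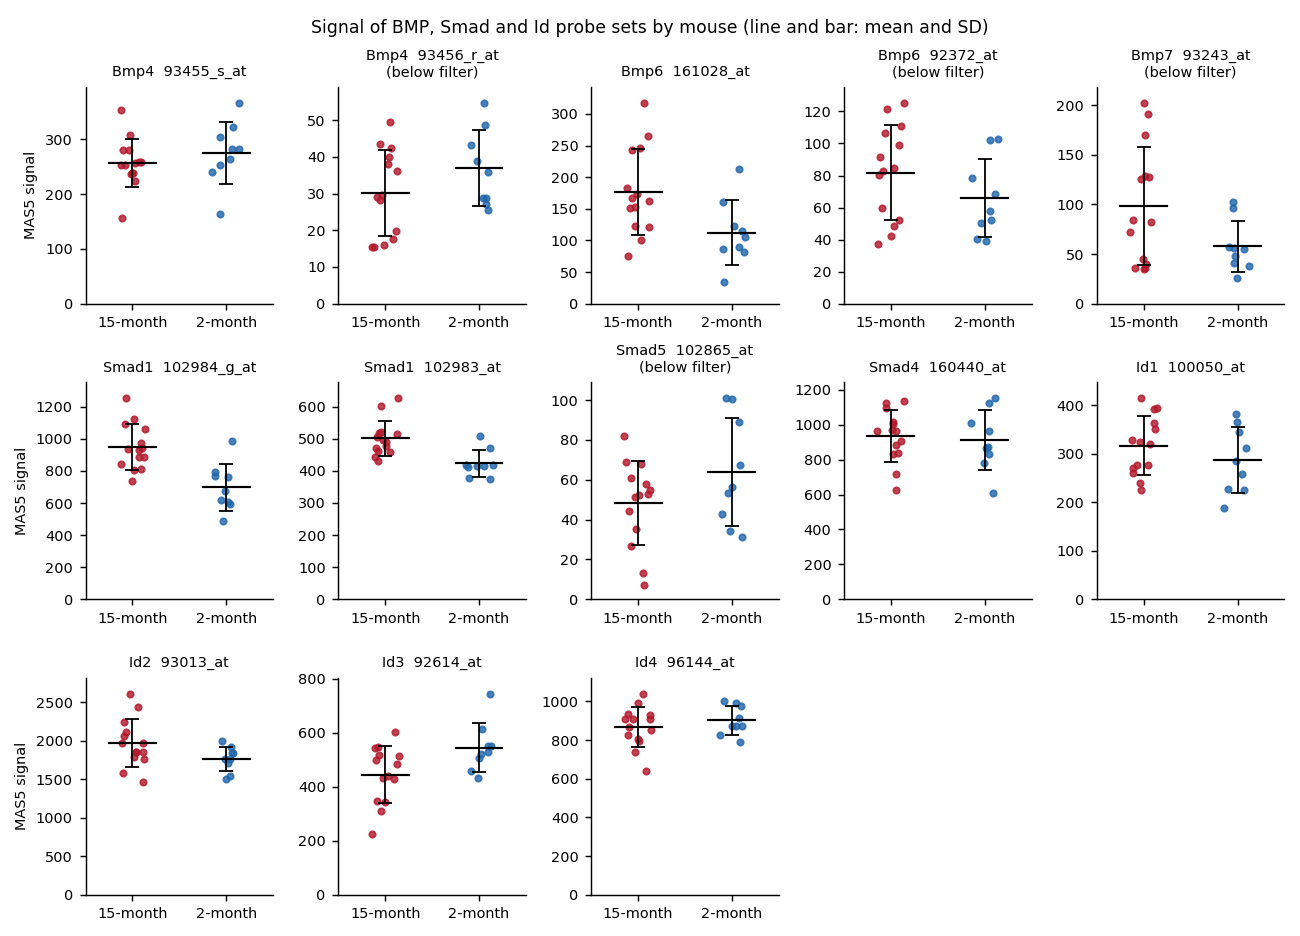
MAS5 signal (linear scale, each panel from 0) of the 13 probe sets, with 1 point per mouse, 14 of 15 months in red and 9 of 2 months in blue, and the mean and SD in black. The ages overlap in every panel, and the clearest separation is in both Smad1 panels, where all 14 mice of 15 months lie above the 2-month mean.

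**Figure D2:**
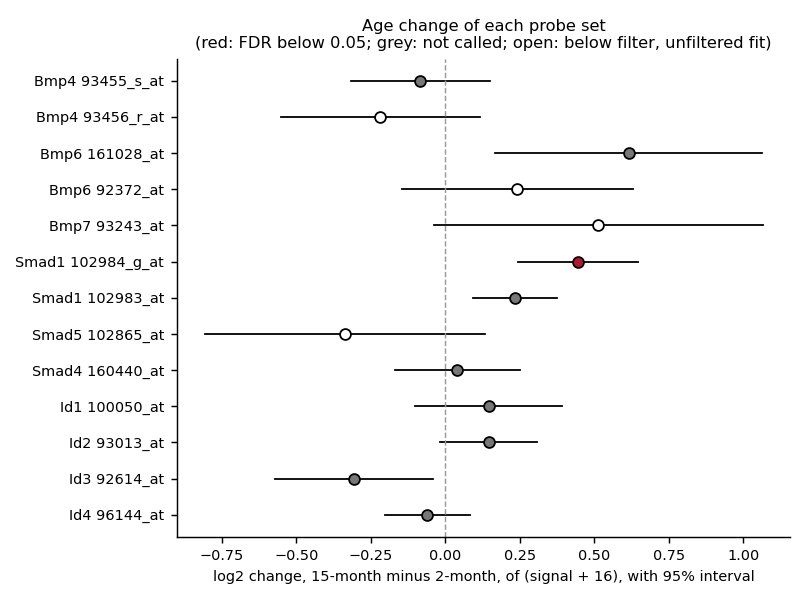
Log2 change of signal + 16, 15-month minus 2-month, with its 95% interval for each probe set, filled where tested and open where the probe set was below the brightness filter and its value comes from the fit without a filter. The brighter Smad1 probe set, at 0.45, is the called one, and the widest intervals are those of Bmp7, Smad5 and the brighter Bmp6 probe set.

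Among the ligands, Bmp6 and Bmp7 had higher mean signals at 15 months with a wide spread, and Bmp4 had a slightly lower one. Bmp4 and Bmp6 were tested and not called, and Bmp7 was below the filter. Bmp6, which in mouse also regulates iron balance through hepcidin, was measured by its brighter probe set with a lowest, median and highest signal of 75.4, 164 and 317 at 15 months and of 34.5, 105 and 214 at 2 months. Of the 14 mice of 15 months 12 lay above the 2-month mean, yet the ranges overlapped over most of their length. Its log2 change was 0.62 ± 0.22 (SE; limma adjusted p = 0.244). The lowest 2-month signal was that of replicate 6, and without it the log2 change was 0.46. The dimmer probe set of Bmp6 lay below the filter at a mean of 81.7 ± 29.6 at 15 months (SD, n = 14) and 65.8 ± 24.2 at 2 months (SD, n = 9). Its log2 change in the fit without a filter was 0.24 (95% interval -0.15 to 0.63). On this probe set 2-month replicate 6 had a signal of 102.2, near the highest of its age, 102.9. Across mice of 15 months the Bmp6 probe sets had r = 0.69 (permutation p = 0.00666, adjusted p = 0.01998 over 6 such relations, rho = 0.71 with permutation p = 0.00607, n = 14) and r = 0.50 without the 2 mice farthest from the median. Across those of 2 months r was -0.06 (exact permutation p = 0.876, rho = 0.18 with exact permutation p = 0.644, n = 9). The difference between the ages was not tested.

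Bmp7, a ligand made by meninges and kidney among other tissues, had a single probe set, below the filter. Its lowest, median and highest signals were 34.9, 83.2 and 202 at 15 months and 25.4, 55.3 and 103 at 2 months. Mice of 15 months were split: 6 of 14 lay above all 2-month mice, and 5 of 14 lay below the 2-month mean. The log2 change without a filter was 0.51 ± 0.27 (SE; limma adjusted p = 0.555). Bmp4, a ligand that drives neural progenitors towards astrocytes, had signals of 156, 255 and 353 (lowest, median, highest) at 15 months and of 163, 282 and 366 at 2 months on its brighter probe set, of the s_at type, in which some probes may also match other transcripts. The ranges of the ages were almost the same, and the log2 change was -0.08 (95% interval -0.32 to 0.15; limma adjusted p = 0.805). On the second Bmp4 probe set signals stayed between 15.5 and 54.7 on all arrays, below the filter, with a log2 change of -0.22 (95% interval -0.55 to 0.11) in the fit without a filter.

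Smad1, a receptor-activated Smad of the BMP branch, was measured by 2 tested probe sets made from the same source sequence record. The brighter probe set had a lowest, median and highest signal of 738, 933 and 1252 at 15 months and of 486, 673 and 986 at 2 months. All 14 mice of 15 months lay above the 2-month mean, 4 of them above every 2-month mouse, and 5 of the 9 mice of 2 months lay below every 15-month mouse. Its mean was 949 ± 141 at 15 months (SD, n = 14) and 699 ± 147 at 2 months (SD, n = 9), a log2 change of 0.45 ± 0.10 (SE; limma adjusted p = 0.0288). Leaving out 15-month replicate 2, 11 or 14, or 2-month replicate 2, 3, 4, 6 or 7, ended the call, with adjusted p values of 0.0510 to 0.0902. So did a Mann-Whitney test (0.113), and limma models that held the mean of the astrocyte markers (0.128) or of the choroid plexus markers (0.0524). With the astrocyte mean the log2 change was 0.49 ± 0.12 (SE), and with the choroid plexus mean it was 0.44 ± 0.10 (SE). Without a marker mean it was 0.45 ± 0.10 (SE). The model with the astrocyte mean called 8 of all tested probe sets rather than 28. The summed signal of 11 tested of 16 astrocyte markers was 23121 to 36722 at 15 months and 25571 to 30803 at 2 months, and 1 of the 11 was called, against 0.376% of all tested probe sets. It was S100b, a calcium-binding protein gene, at 0.43 (adjusted p = 0.0128). Gfap, the astrocyte filament gene, was at 0.45 (adjusted p = 0.0851) on its brightest probe set and at 0.24 (adjusted p = 0.255) on another. Of the 11 markers 8 were above 0 and 3 below, with a median of 0.03. The mean log2 of the list was 10.58 ± 0.09 at 15 months (SD, n = 14) and 10.48 ± 0.08 at 2 months (SD, n = 9). Of 12 tested microglia and macrophage markers 5 were called higher and all 12 were above 0 (median 0.28), and of 15 tested glucocorticoid-responsive genes 3 were called higher and 14 were above 0 (median 0.29). Within the ages Smad1 had r = 0.06 with the astrocyte mean at 15 months (permutation p = 0.851, rho = -0.03, n = 14) and -0.40 at 2 months (exact permutation p = 0.285, rho = -0.43, n = 9). With the microglia mean it had r = 0.05 (permutation p = 0.856, rho = -0.01) and 0.12 (exact permutation p = 0.769, rho = 0.22), and with the glucocorticoid mean r = 0.51 (permutation p = 0.0615, rho = 0.43) and 0.48 (exact permutation p = 0.187, rho = 0.62), in the same order of ages. None of these 6 passed adjustment, and no model with the microglia or glucocorticoid mean was run. For Smad1 the log2 change stayed between 0.38 and 0.51 over all settings run and was 0.48 (adjusted p = 0.00833) without the 4 arrays of lowest 99th percentile.

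The dimmer Smad1 probe set had signals of 430, 492.9 and 626 at 15 months and of 376, 415 and 508 at 2 months (lowest, median, highest). Here too all 14 mice of 15 months lay above the 2-month mean, and 7 of 9 mice of 2 months lay below every 15-month mouse. The log2 change, 0.23 ± 0.07 (SE; limma adjusted p = 0.147), was smaller than that of the first probe set and did not pass. The difference between the changes was 0.21 on the log2 scale. That these probe sets differ was known when the genes were chosen, so it is given as a description with no test. The within-array log2 ratio of the first to the second, which compares ages and not transcript levels, was 0.89 ± 0.11 at 15 months (SD, n = 14) and 0.68 ± 0.33 at 2 months (SD, n = 9). The wide 2-month spread came with replicate 7, lowest of its age on the first probe set and highest on the second. Between mice of 15 months the probe sets had r = 0.85 (permutation p = 0.000110, adjusted p = 0.000660, rho = 0.82 with permutation p = 0.000490, n = 14) and r = 0.70 without the 2 farthest mice. Between those of 2 months r was -0.04 (exact permutation p = 0.910, rho = 0.20 with exact permutation p = 0.613, n = 9), or 0.43 without replicates 7 and 8, which are among the 4 arrays of lowest 99th percentile.

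**Figure D3:**
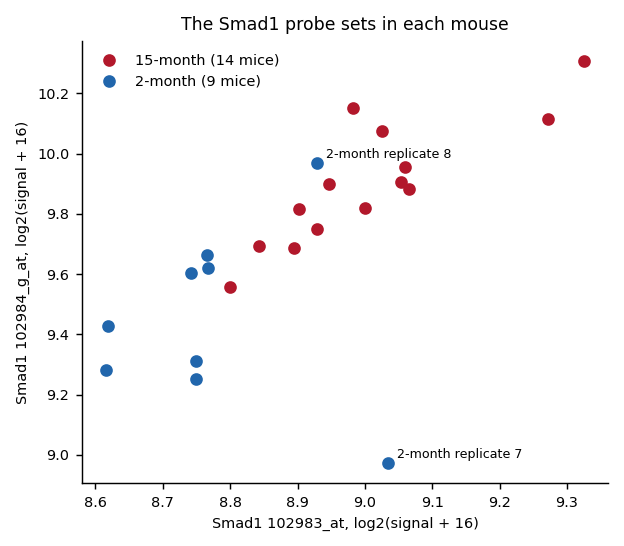
Log2(signal + 16) of the called Smad1 probe set against that of the other, with 1 point per mouse, 15-month in red and 2-month in blue. The red points follow a line (r = 0.85), 2-month replicate 8 lies among them, and 2-month replicate 7, lowest on the vertical axis, lies far below them.

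The Smad1 promoter is shown because Smad1 is the member that was called. RefSeq places the 250 bases before its start at chr8:79399429-79399678 of GRCm38.p6 on the minus strand. Capitals mark, on both strands and here and below, GGCGCC, the GC-rich element through which BMP-activated Smads act on Id genes, and GTCT or its reverse complement AGAC, the core Smad box; these do not overlap each other in the sequences shown. The Smad1 window holds neither motif, and 63.6% of its bases are G or C, against a median of 52.4% over 32851 RefSeq promoter windows.
Smad1: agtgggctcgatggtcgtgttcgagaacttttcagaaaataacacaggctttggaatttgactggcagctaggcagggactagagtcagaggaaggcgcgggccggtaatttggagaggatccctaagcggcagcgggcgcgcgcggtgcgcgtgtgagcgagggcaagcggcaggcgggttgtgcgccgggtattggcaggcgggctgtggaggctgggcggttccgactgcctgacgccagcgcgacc

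Smad5, a close relative of Smad1 with the same receptors, was too dim for the main test. Smad4, the partner shared with the transforming growth factor beta branch, was tested and did not pass. Smad5 lay below the filter on its single probe set, at 48.3 ± 21.2 at 15 months (SD, n = 14) and 63.99 ± 27.1 at 2 months (SD, n = 9). The log2 change without a filter was -0.34 (95% interval -0.81 to 0.13), opposite in sign to that of Smad1, and 3 mice of each age lay outside the range of the other, on the low side at 15 months and on the high side at 2 months. Smad4 ran from 628 to 1136 at 15 months, with a median of 964, and from 609 to 1150 at 2 months, with a median of 871. These ranges nearly coincided, and the log2 change of 0.04 had a 95% interval of -0.17 to 0.25 (limma adjusted p = 0.894).

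The 4 Id genes had changes of both signs, and none passed the test. Promoters of Id2, Id3 and Id4 are shown as the targets at the end of the pathway, with the same motifs in capitals. They are the 250 bases before the start in RefSeq on GRCm38.p6, for Id2 at chr12:25096093-25096342 on the minus strand, for Id3 at chr4:136143572-136143821 and for Id4 at chr13:48260866-48261115 on the plus strand. GGCGCC occurs once in the windows of Id2 and Id4 and not in that of Id3, and 9.59% of all 32851 windows hold it. GTCT or AGAC occurs at 2 places in Id3, at 1 in Id2 and at none in Id4, and 82.9% of all windows hold it, so that a match is a description of these letters only.
Id2: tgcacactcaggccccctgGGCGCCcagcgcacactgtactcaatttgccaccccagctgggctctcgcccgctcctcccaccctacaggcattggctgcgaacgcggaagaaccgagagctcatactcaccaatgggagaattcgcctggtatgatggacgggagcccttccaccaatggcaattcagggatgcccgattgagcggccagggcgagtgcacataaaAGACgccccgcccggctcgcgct
Id3: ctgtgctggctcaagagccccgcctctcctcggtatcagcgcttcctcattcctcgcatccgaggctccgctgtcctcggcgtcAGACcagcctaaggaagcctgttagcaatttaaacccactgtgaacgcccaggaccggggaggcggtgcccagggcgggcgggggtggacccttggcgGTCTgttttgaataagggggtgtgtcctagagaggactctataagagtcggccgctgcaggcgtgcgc
Id4: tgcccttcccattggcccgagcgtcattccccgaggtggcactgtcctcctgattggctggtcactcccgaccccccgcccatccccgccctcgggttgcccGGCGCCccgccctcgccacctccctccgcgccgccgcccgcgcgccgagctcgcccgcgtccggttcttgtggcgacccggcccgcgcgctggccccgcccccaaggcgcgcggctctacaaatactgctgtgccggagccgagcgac

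Id3, which in the brain is found in astrocytes and blood vessels, had a lower mean signal at 15 months. Its lowest, median and highest signals were 225, 462 and 604 at 15 months and 431, 528 and 743 at 2 months. Of the mice of 15 months 5 lay below every 2-month mouse and 2 of 14 above the 2-month mean, and the log2 change was -0.31 ± 0.13 (SE; limma adjusted p = 0.331). With the mean of the meninges and fibroblast markers in the model the change was -0.40 ± 0.11 (SE; limma adjusted p = 0.166). Id2, expressed by many neurons, had signals of 1967 ± 311 at 15 months (SD, n = 14) and 1763 ± 162 at 2 months (SD, n = 9). Its highest signals, 2607 and 2437, were those of 15-month replicates 13 and 14, above the highest 2-month signal of 2001. The log2 change of Id2 was 0.15 (95% interval -0.02 to 0.31; limma adjusted p = 0.461).

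Id1, a BMP target prominent in endothelium and in neural stem cells, ran from 224 to 414 at 15 months and from 187 to 382 at 2 months. The log2 change of 0.15 had a 95% interval of -0.10 to 0.39 (limma adjusted p = 0.655). Id4, an inhibitor kept up by quiescent hippocampal stem cells and by astrocytes, had the smallest spread of the Id genes, with an SD on the log2 scale of 0.18 at 15 months and 0.12 at 2 months. Its signals were 868 ± 103 at 15 months (SD, n = 14) and 903 ± 75.1 at 2 months (SD, n = 9), with a log2 change of -0.06 (95% interval -0.20 to 0.08; limma adjusted p = 0.760). No pair of Id genes passed the adjustment for correlation between mice. Over their 6 pairs Pearson's r was -0.40 to 0.27 at 15 months and -0.73 to 0.36 at 2 months. The lowest was that of Id1 with Id2 (exact permutation p = 0.0245, adjusted p = 0.425, rho = -0.85, n = 9).

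At 15 months Bmp7 varied between mice with markers of the meninges and of fibroblasts. Of 270 relations between members and with cell type lists, computed within each age, 1 passed Benjamini-Hochberg adjustment. It was that of Bmp7 with the mean log2 of 14 tested meninges and fibroblast markers at 15 months (r = 0.84, permutation p = 4e-05, adjusted p = 0.0108, rho = 0.90, permutation p = 4e-05, n = 14), and r was 0.81 without the 2 mice farthest from the median of the marker mean. At 2 months the same relation had r = 0.49 (exact permutation p = 0.186, rho = 0.48 with exact permutation p = 0.194, n = 9), and the difference between the ages was not tested. Bmp6 followed the same markers at 15 months with r = 0.76 (permutation p = 0.00205, adjusted p = 0.184, rho = 0.75 with permutation p = 0.00345, n = 14) and r = 0.80 without the 2 farthest mice. Id3 did so with r = 0.61 (permutation p = 0.0208, adjusted p = 0.401, rho = 0.59 with permutation p = 0.0287, n = 14) and r = 0.80 without them. At 2 months r was 0.61 for Bmp6 (exact permutation p = 0.0854, rho = 0.65 with exact permutation p = 0.0666, n = 9) and 0.66 for Id3 (exact permutation p = 0.0552, rho = 0.40 with exact permutation p = 0.291, n = 9). Without the 2 farthest mice r was 0.42 for Bmp6, with a rho of 0.61. For Id3 r was then 0.24 and rho 0.14, so that the 2-month Id3 relation rests on those mice. Relations of like size at 15 months that did not pass were not limited to these markers. Bmp7 had r = 0.66 with the endothelium and pericyte mean (permutation p = 0.00814, adjusted p = 0.254, rho = 0.71). Bmp6 had r = 0.77 with Bmp7 (permutation p = 0.00145, adjusted p = 0.184, rho = 0.82). With the hippocampal neuron mean Bmp6 had r = -0.67 (permutation p = 0.00847, adjusted p = 0.254, rho = -0.55). Id4 had r = 0.70 with that mean (permutation p = 0.00622, adjusted p = 0.254, rho = 0.52), and r = 0.24 without the 2 farthest mice. At 2 months Id2 had r = -0.85 with the oligodendrocyte mean (exact permutation p = 0.0036, adjusted p = 0.194, rho = -0.90, n = 9).

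The summed signal of the 14 tested meninges and fibroblast markers, of 18 on the list, ranged from 8565 to 30749 at 15 months and from 11308 to 24349 at 2 months. No tested marker was at 0 on any array, the lowest signal being 10.1. Signals spread widely within an age for defining markers such as Mgp, a matrix protein of vessel walls and meninges, at 256 to 1397 at 15 months and 252 to 782 at 2 months. Choroid plexus markers also differed between mice, with Ttr, the transthyretin gene of that tissue, at 150 to 9922 at 15 months and at 68.9 to 9134 at 2 months. On the mean log2 of the 4 tested markers of 15 listed, 4 of 14 mice of 15 months (at 9.17 to 10.20) and 1 of 9 mice of 2 months (at 10.02) stood apart from the rest (up to 7.52 and 8.28), so correlations with that list are given within the rest only. There, at 15 months, Bmp6 had r = 0.38 (permutation p = 0.277, adjusted p = 0.416 over 6 relations, rho = 0.56 with permutation p = 0.0964, n = 10), Bmp7 had r = 0.39 (permutation p = 0.273, rho = 0.45) and Id3 had r = 0.58 (permutation p = 0.0836, rho = 0.60). At 2 months r was -0.22 for Bmp6, -0.49 for Bmp7 and -0.14 for Id3 (exact permutation p = 0.525, 0.219 and 0.722, n = 8). None of the 6 passed. The relations with the meninges and fibroblast mean hold all mice and were not computed within the rest. The 15-month mice that stood apart, replicates 3, 5, 7 and 11, had meninges and fibroblast means of 9.56, 9.59, 10.06 and 9.37. The range over all mice of that age was 8.52 to 10.06. The 2-month one, replicate 2, had 9.79, the highest of its age. With the choroid plexus mean in the limma model the log2 change of Bmp6 was 0.47 ± 0.19 (SE; adjusted p = 0.338), close to its value with the other list. With the meninges and fibroblast mean in the limma model the log2 change of Bmp6 was 0.44 ± 0.17 (SE; adjusted p = 0.323), against 0.62 without it, and that of the brighter Smad1 probe set was 0.46 (adjusted p = 0.0354). Bmp7, below the filter, was in none of the fits with a marker mean. The part of these cells in the Bmp6, Bmp7 and Id3 values was not tested further.

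**Figure D4:**
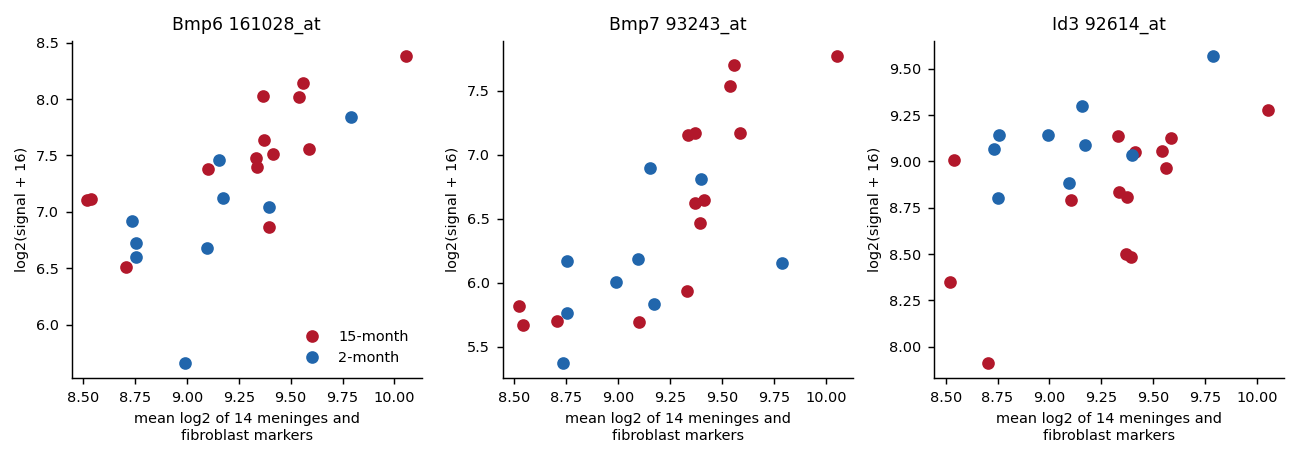
Log2(signal + 16) of Bmp6, Bmp7 and Id3 in each mouse against the mean log2 value of 14 meninges and fibroblast markers, 15-month in red and 2-month in blue. The red points rise to the right in all 3 panels (r = 0.76, 0.84 and 0.61), and the lowest Id3 value is that of a 15-month mouse and the highest that of a 2-month one.

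The genes whose profiles were most like those of the 8 members with a tested probe set were found by Pearson's r over the 23 mice after subtraction of each age's mean, among 5680 genes, as a description. For Id3 they were Tob1, an antiproliferative gene whose product binds Smads (r = 0.86), and Notch2, a Notch receptor (r = 0.83). Bmp6 was most like Gsn, the actin-severing gelsolin (r = 0.83), and Ptgis, prostacyclin synthase (r = 0.75). For Smad1 these were Mrpl11, a mitochondrial ribosomal protein gene (r = 0.77), and Map4, a microtubule-associated protein gene (r = 0.70). Id1 was most like Nde1 and Car14, and Id2 most like Gnb4 and Btbd17, with r between 0.76 and 0.79. Smad4 was closest to Rrn3 and 2310061I04Rik, Bmp4 to Oxct1 and Plac1, and Id4 to Cacng2 and Eloc, with r between 0.70 and 0.81. None of the 16 genes was called between the ages.

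None of the tested pathway genes outside the member list was called, against 0.376% of all tested probe sets. Of 30 other ligands of the superfamily 7 were bright enough to be tested, 2 with changes above 0 and 5 below, with a median of -0.15. The lowest p among them was that of Inha, the inhibin alpha subunit, with 461 ± 114 in 15-month mice (SD, n = 14) and 544 ± 78.5 in 2-month mice (SD, n = 9), a log2 change of -0.26 (limma adjusted p = 0.379). Lefty1, a secreted inhibitor of Nodal, followed at -0.18 (adjusted p = 0.446). Of 16 receptors and co-receptors 6 were tested, 3 above 0 and 3 below, with a median of 0.01. Acvrl1, an endothelial BMP9 receptor, had a change of -0.14 (adjusted p = 0.405) on its brightest probe set, but 0.23 and -0.00 on its other tested ones. Eng, its co-receptor endoglin, had one of 0.16 (adjusted p = 0.462).

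Antagonists and ligand-processing genes had changes on both sides of 0, with 7 of 20 tested and a median of 0.01. Nbl1, a secreted BMP antagonist of the DAN family, had the lowest p, at 620 ± 107 at 15 months (SD, n = 14) and 472 ± 120 at 2 months (SD, n = 9), a log2 change of 0.41 ± 0.12 (SE; limma adjusted p = 0.148). Nog, which encodes noggin, had a mean signal of 124 ± 30.6 in 15-month mice (SD, n = 14) and of 162 ± 42.4 in 2-month mice (SD, n = 9), with a log2 change of -0.34 ± 0.16 (SE; limma adjusted p = 0.384). Of 21 other Smads and Smad regulators 11 were tested, 3 above 0 and 8 below, with a median of -0.09. Ski, a corepressor of Smads, had a change of -0.19 (adjusted p = 0.195). Smad2, of the transforming growth factor beta branch, was at -0.27 (adjusted p = 0.214). Smad6, the inhibitory Smad that BMP itself induces, was at 0.21 (adjusted p = 0.393).

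Of 21 bHLH genes, the kind that Id proteins bind or oppose, 10 were tested, 2 above 0 and 8 below, with a median of -0.10. Hey1, a Notch and BMP target, was at 827 ± 85.0 at 15 months (SD, n = 14) and 954 ± 138 at 2 months (SD, n = 9), with a log2 change of -0.20 (limma adjusted p = 0.282), and Neurod1, a factor of granule neuron differentiation, had one of -0.21 (adjusted p = 0.506). Tcf4, an E protein and direct Id partner, was at 0.04 (adjusted p = 0.859). Among 17 other BMP targets 11 were tested, 1 above 0 and 10 below, with a median of -0.08, and 55% of all tested probe sets were below 0. That list shares Smad6, Smad7, Nog, Tob1, Hey1 and Hes1 with the preceding ones.

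**Figure D5:**
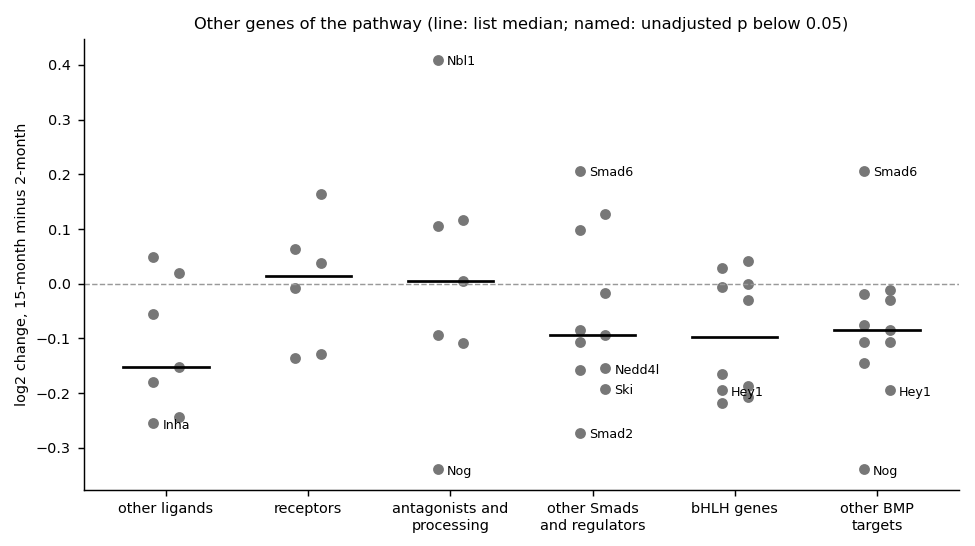
Log2 change, 15-month minus 2-month, of each tested gene in 6 pathway lists, with 1 point per gene by its brightest probe set and a line at the list median. Nbl1 at 0.41 and Nog at -0.34 are the extremes, and no gene shown was called after adjustment.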

How the data were processed

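Hippocampal RNA was biotin-labelled for Affymetrix arrays read in 1 colour, per the labels' protocols. The authors deposited linear intensities, for which the submitters' processing notes name MAS5, with no version. The 2% trimmed mean was 500.3 on every array, so no further normalisation was applied. Ages came from the labels, with 14 mice of 15 months and 9 of 2 months. The labels give no batch.

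GEO's platform annotation gave the gene names. Controls apart there were 12422 probe sets, and the 7453 above the 40th percentile of mean log2(signal + 16), a signal of 91.7, were tested with limma 3.58.1 in R 4.3.3 (intensity trend, robust variance). Tests were two-sided, and calls were made at a Benjamini-Hochberg false discovery rate of 0.05. Probe sets below it are given by value, with a fit without the filter. Each gene of the other lists stands for its brightest probe set. The members, lists and tests were chosen with earlier results of these data known. Named genes were all members, in each pathway list those called or the 2 of lowest p, and for each of the 8 members with a tested probe set the 2 most alike. Smad6 and Tcf4 fall outside that rule and were picked with their values known.

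Correlations used 100000 permutations for 14 mice and all 362880 pairings for 9, with scipy 1.17.1. The split of mice by choroid plexus markers, at the widest gap within each age, was added with the values known. The fit was tested on simulated data. The alternatives tried were other pseudocounts, filters, normalisation, variance models, a rank test, covariates and leaving out arrays. Promoter sequences are those of RefSeq for GRCm38.p6, and those of 7 of the 10 members were used. Id1 and Bmp7 had no entry in the promoter set, and Smad4 was left out when the sequences were taken.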

Additional observations from a re-analysis of the deposited data

How the results depend on the processing

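No paired analysis was possible because the ages are unpaired groups of different mice. The count of called member probe sets, 1, was 0 with the choroid plexus mean, 0 with the astrocyte mean and 0 with the Mann-Whitney test, and 0 to 1 when each array was left out in turn. With the astrocyte mean the count of higher probe sets over all tested ones was 6 rather than 25, and with the 25th percentile of each array as a covariate it was 39. It was 18 to 32 when each array was left out. The count of lower ones, 3, was 6 with the 60th-percentile filter, 21 with the 25th percentile covariate, 5 with the meninges mean, 6 with the endothelium and pericyte mean, 8 with the Mann-Whitney test and 2 to 7 when each array was left out, the highest without 15-month replicate 3. Smad4, near 0, changed sign with the 25th percentile covariate (log2 change -0.024) and without 2-month replicate 3 (-0.029), and lay between -0.029 and 0.084 when each array was left out. The cause was not tested in any of these. Every other member kept the sign of its change in all settings run, Id3 between -0.40 and -0.24 and Bmp6 between 0.44 and 0.77 on its tested probe set, which like that of Bmp4 was too dim for the 60th-percentile filter. The difference in change between the Smad1 probe sets, a description, was computed in the main setting and in only some of the others. It was 0.18 to 0.21 over the pseudocounts, quantile normalisation and the fit without the 4 arrays of lowest 99th percentile. Without 2-month replicate 7 the changes of the brighter and dimmer probe sets were 0.38 and 0.26. Without 2-month replicate 8 they were 0.51 and 0.25. Probe sets below a signal of 91.7 were outside the main test, their p values come from the fit without a filter, and the pseudocount understates their changes.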
